A study of Zea mays with 14 samples.

Results

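A set of 183 probe sets, of 17555 tested on Affymetrix maize arrays, was much higher in germinated than in quiescent embryonic axes and did not lag in the second of the samples taken at 24 h. The axis carries the embryo's root and shoot. The members were chosen by their measured values. In the 24 h sample M4, the mean of its arrays had to exceed the mean of the quiescent samples by at least 3.5 on the log2 scale (11.3-fold), and the other 24 h sample, RB, had to lie less than 0.5 below M4. The first threshold alone was met by 537 probe sets, of which 34.1% were members. The other 354 lagged in RB.

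The series holds 5 groups. Polysomal RNA, which is recovered together with mRNA-bound ribosomes, was taken from germinated axes with insulin (3 samples) and without insulin (3 samples). Total RNA was taken from germinated axes with insulin (1 sample), from axes germinated for 24 h (2 samples, M4 and RB) and from quiescent axes at 0 h (2 samples). For insulin treatment, axes were cut from seeds imbibed for 22 h in the dark and then kept for 2 h in Murashige and Skoog medium, a complete plant nutrient medium, with bovine insulin at 200 µU/mL or without it. The labels give the same temperature for all samples. They do not tell whether the axes of M4 and RB passed through the medium, or which maize line was used.

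In a dry seed, the axis holds stored mRNA and little metabolic activity. On imbibition it resumes respiration and glycolysis, makes new mRNA, loosens and extends its cell walls, and later replicates its DNA and divides. Young maize seedlings also make benzoxazinoids, defence compounds kept as glucosides until a beta-glucosidase frees the active form.

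The deposited values are log2 probe set intensities, and each level below is on that scale. A sample's background level, taken at the 95th percentile of its 23 negative controls, lay between 4.29 and 4.81. Array medians lay between 7.28 and 7.65. The hybridisation controls of polysomal insulin sample 2 had a median of 3.97, against 8.98 to 10.69 in the other 10 samples. The poly-A spike-in controls had their highest medians in polysomal insulin sample 2 (10.79) and polysomal no-insulin sample 1 (10.84), against 7.17 to 9.71 in the other 9 samples. Among total RNA samples these medians were 9.71 and 9.47 in quiescent axes, 7.47 in M4, 7.56 in RB and 7.17 with insulin. The 3′ minus 5′ difference of the EF1a control was 2.43 in polysomal insulin sample 1 and 2.73 in polysomal no-insulin sample 2, and 0.55 to 1.64 elsewhere. In total RNA it was 1.35 and 1.56 in quiescent axes, against 0.82 in M4, 0.85 in RB and 0.55 with insulin. Zein and opaque-2 probe sets, which mark endosperm, were above background for 3 or 4 of 16 in each group, and their summed linear intensity was 524 to 674 in the 24 h samples, against 487 to 503 in the quiescent samples. Embryo globulins and oleosin, reserve genes that mark other embryo tissue as well, summed to 4169 and 8942 in the 24 h samples, against 36566 and 37409 in the quiescent samples, over 4 probe sets. The part of these measures in the results was not tested.

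The member levels followed 1 broad pattern. Their median was 10.59, 10.37 and 10.52 in polysomal RNA with insulin, 10.28, 10.55 and 10.57 in polysomal RNA without insulin, 10.21 in total RNA with insulin, and 10.22 (M4) and 10.36 (RB) at 24 h, against 5.89 and 5.80 in quiescent axes. No member was at background in any germinated sample. In quiescent axes, 22 members (12.0%) were at background in both samples, against 15.4% of all probe sets, while 20 were in 1 sample and 141 in neither. In whole axes, fewer cells of a type and less RNA per cell cannot be told apart.

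**Figure D1:**
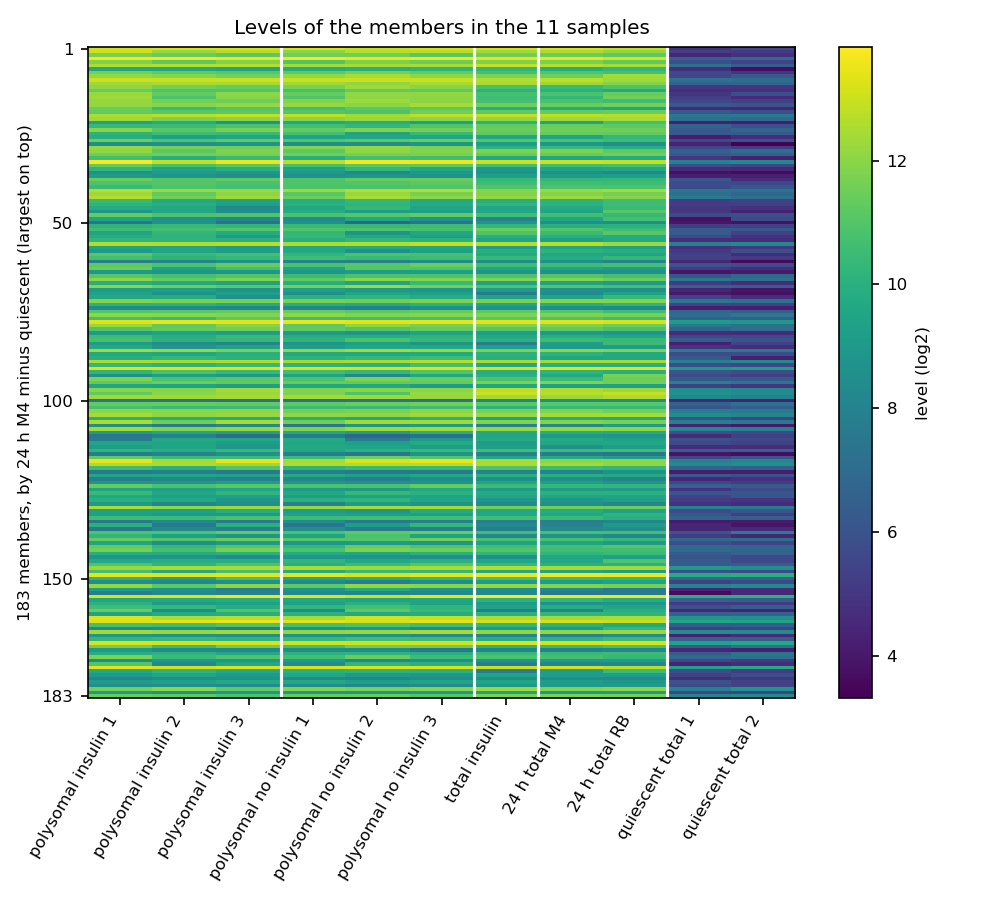
Log2 level of the 183 members (rows, by the M4 minus quiescent difference) in the 11 samples (columns, technical arrays averaged, white lines between groups). The 9 germinated samples on the left are brighter than the 2 quiescent samples on the right in every row.

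The M4 minus quiescent difference, which chose the members, ran from 3.5 to 8.02 with a median of 4.22 (18.7-fold). The members just inside that threshold had 3.5, 3.51 and 3.51, the last being dehydrin3, and the probe sets just outside had 3.49, 3.47 and 3.47. The RB minus M4 difference ran from −0.49 to 1.93 with a median of −0.07, and 160 of the 183 lay within 0.5 of M4. The rule sets no upper limit, and the other 23 were more than 0.5 higher in RB than in M4, so not all members were equal in both samples. The members nearest its threshold had −0.49, −0.49 and −0.48, and those just outside had −0.50, −0.50 and −0.52. In the fit, 47.1% of all probe sets were called between 24 h and quiescent axes, 21.3% as higher at 24 h and 25.8% as lower. All 183 members were called higher, which their choice had settled.

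**Figure D2:**
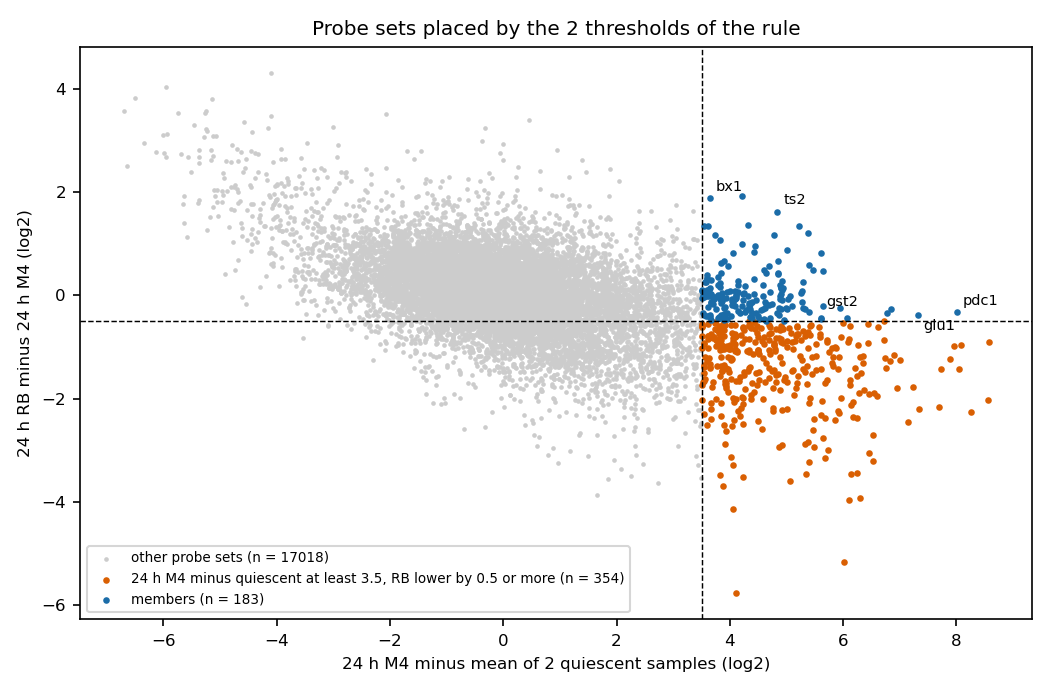
RB minus M4 (vertical, log2) against M4 minus the mean of the quiescent samples (horizontal, log2), 1 point per probe set, with dashed lines at 3.5 and −0.5. The 183 members (blue) lie right of and above the lines, the 354 lagging probe sets (orange) below, and pdc1 is the member farthest right.

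The samples that the rule did not use gave like levels. All 183 members were higher than the quiescent mean in each germinated group. Their median difference from it was 4.34 in polysomal RNA with insulin, 4.36 in polysomal RNA without insulin and 4.20 in total RNA with insulin, and 158, 155 and 167 members reached 3.5 in that order. These differences share the quiescent samples with the rule. The lowest of the 9 germinated samples was above both quiescent samples for all 183 members, against 24.7% of all probe sets, and above them by at least 2 for 180 members, against 4.67% of all. As the rule used 4 of the 11 samples, nothing is read from these counts.

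The platform annotation, updated through RefSeq gene identifiers, gave 1 gene for 1452 of the tested probe sets. It named 28 members, which belong to 22 genes, while 155 members had no gene there. The member identifiers fall into 162 clusters, and 35 members share a cluster with another member, so these are not independent transcripts. No sequences of these probe sets or genes were at hand. The genes named below are those 22.

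Genes of fermentation, glycolysis and sugar use are described first. pdc1, a pyruvate decarboxylase of ethanolic fermentation, had the largest difference of all members. It measured 13.20 in M4 and 12.87 in RB, against 4.83 and 5.53 in quiescent axes, a log2 difference of 8.02 for M4 (259-fold). In the remaining samples pdc1 lay at 13.11, 13.24 and 13.09 in polysomal RNA with insulin, 13.27, 12.91 and 13.16 in polysomal RNA without insulin, and 13.15 in total RNA with insulin. The 9 germinated samples were thus within 0.5 of each other and far above both quiescent samples. A second pdc1 probe set, not a member, differed by 1.17 (mean of both 24 h samples minus quiescent), so the 2 probe sets disagree in size.

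Cytosolic glyceraldehyde-3-phosphate dehydrogenase, a glycolytic enzyme, was represented by gpc3 and gpc4. The strongest gpc3 probe set had 13.58 in M4 and 13.24 in RB, against 6.57 and 7.03 in quiescent axes, a difference of 6.78 (110-fold). gpc4 had 13.35 and 13.18 at 24 h, against 9.07 and 8.92 in quiescent axes. Both stayed between 13.33 and 13.77 in the other germinated samples. Another pair of gpc3 probe sets, which share 1 cluster with the gpc4 probe set, behaved less evenly. In total RNA with insulin the pair had 7.96 and 7.80. One of them had 9.50 in M4 and 10.67 in RB, against 3.78 and 5.68 in quiescent axes. On that probe set the repeat array of M4 was 1.38 below the first M4 array, and on its partner 1.16 below. The other 181 members differed by less than 0.5 between the M4 arrays.

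gpc1 and gpc2, the other annotated cytosolic genes of this enzyme, had 3 probe sets and none was called. gpc2 averaged 13.32 ± 0.25 at 24 h and 13.40 ± 0.09 in quiescent axes (SD, n = 2 each).

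sus1, a sucrose synthase that splits sucrose for use in the cell, had 13.40 in M4 and 13.30 in RB, against 8.98 and 9.35 in quiescent axes. Its polysomal levels were nearly even, with 13.40, 13.41 and 13.41 in polysomal RNA with insulin and 13.28, 13.24 and 13.38 without it. Of the 6 annotated sucrose synthase probe sets, 3 were called higher at 24 h, 2 lower and 1 was not called. The 2 that were lower belong to sus2 and ss1, and sus2 averaged 7.78 ± 0.37 at 24 h and 11.20 ± 0.46 in quiescent axes (SD, n = 2 each).

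Ppdk1, pyruvate orthophosphate dikinase, which converts between pyruvate and phosphoenolpyruvate, had 3 member probe sets. The leading one had 11.88 in M4 and 11.64 in RB, against 7.21 and 6.81 in quiescent axes. In polysomal RNA it had 12.27, 11.26 and 12.01 with insulin and 11.10, 12.20 and 11.69 without it, so insulin sample 2 and no-insulin sample 1 were its lowest polysomal samples. One of the other Ppdk1 probe sets was lower at 24 h by 1.35 (adjusted p = 0.00046, limma) and another was at 4.38 and 4.54 in the 24 h and quiescent means, so the 5 probe sets of this gene disagree.

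Among genes of growth and division, tub4, a beta-tubulin, had 11.56 in M4 and 11.54 in RB, against 6.25 and 6.75 in quiescent axes. tua5, an alpha-tubulin, had 11.36 and 11.49 at 24 h, against 6.29 and 6.55 in quiescent axes. Tubulins build the microtubules that guide wall deposition and form the spindle. tua5 was nearly level across germinated samples, at 11.56, 11.55 and 11.69 in polysomal RNA with insulin and 11.33 in total RNA with insulin.

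For the cell wall, expa1, an alpha-expansin that loosens walls, had 10.50 in M4 and 11.08 in RB, against 6.28 and 5.33 in quiescent axes. cesa2, a cellulose synthase subunit, had 9.96 and 9.71 at 24 h, against 5.58 and 5.65 in quiescent axes. Both genes therefore stood more than 3.5 above either quiescent sample at 24 h.

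pcna1 and pcna2 encode the sliding clamp that holds DNA polymerase on its template. pcna2 had 10.85 in M4 and 10.83 in RB, against 5.73 and 6.20 in quiescent axes, and pcna1 had 10.16 and 10.49 at 24 h, against 6.64 and 6.48. The 2 genes were the only PCNA probe sets annotated, and both are members.

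Defence and detoxification genes included the member ranked next after pdc1. glu1, a beta-glucosidase that acts on benzoxazinoid glucosides, had 12.50 in M4 and 12.12 in RB, against 5.30 and 5.04 in quiescent axes, a difference of 7.32 (160-fold). bx6, a dioxygenase of benzoxazinoid synthesis, had 13.01 and 12.93 at 24 h, against 7.93 and 8.26 in quiescent axes, on the stronger of its 2 member probe sets. gst2, a glutathione S-transferase, had 12.78 and 12.33 at 24 h, against 7.31 and 7.05 in quiescent axes.

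bx1 encodes the indole-3-glycerol phosphate lyase that opens benzoxazinoid synthesis. It had 11.39, 8.43 and 10.96 in polysomal RNA with insulin, 8.41, 11.13 and 10.37 in polysomal RNA without insulin, 7.78 in total RNA with insulin, and 8.01 (M4) and 9.89 (RB) at 24 h. In quiescent axes it was at background in both samples (4.44 and 4.29), so the 24 h mean was at least 19.1-fold higher against the background level. The polysomal samples of bx1 spanned 2.98, the widest span of any member, with insulin sample 2 and no-insulin sample 1 between M4 and RB and the other 4 above RB. All 3 annotated benzoxazinoid probe sets are members.

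The remaining annotated members are of mixed roles. opr1, an oxophytodienoate reductase, had 10.76 in M4 and 10.70 in RB, against 6.07 and 7.82 in quiescent axes. phytase1, which frees phosphate from stored phytate, had 11.84 and 11.69 at 24 h, against 8.01 and 8.33. dehydrin3, of a family known for protecting cells from drying, had 11.89 and 12.00 at 24 h, against 7.92 and 8.83 in quiescent axes. The other dehydrin3 probe sets had M4 minus quiescent differences of 3.29 and 3.22. rab17, a dehydrin of the dry embryo, had 10.42 in M4 and 12.50 in RB, against 14.09 and 14.09 in quiescent axes.

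ts2, a short-chain dehydrogenase known from sex determination of maize flowers, had 9.48 in M4 and 11.10 in RB, against 5.00 and 4.28 in quiescent axes, so RB was above M4 by 1.62. Of all members, 12 were at least 1 higher in RB than in M4. nfd106 had 9.50 and 9.69 at 24 h, against 6.25 and 4.23 in quiescent axes. piip1 had 2 members among its 6 probe sets. Of the other 4, 3 passed the first threshold but lagged in RB, and 1 was lower at 24 h by 1.61, so the probe sets of this gene disagree. IDP370 had 9.12 and 9.13 at 24 h, against 5.75 and 5.46 in quiescent axes.

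**Figure D3:**
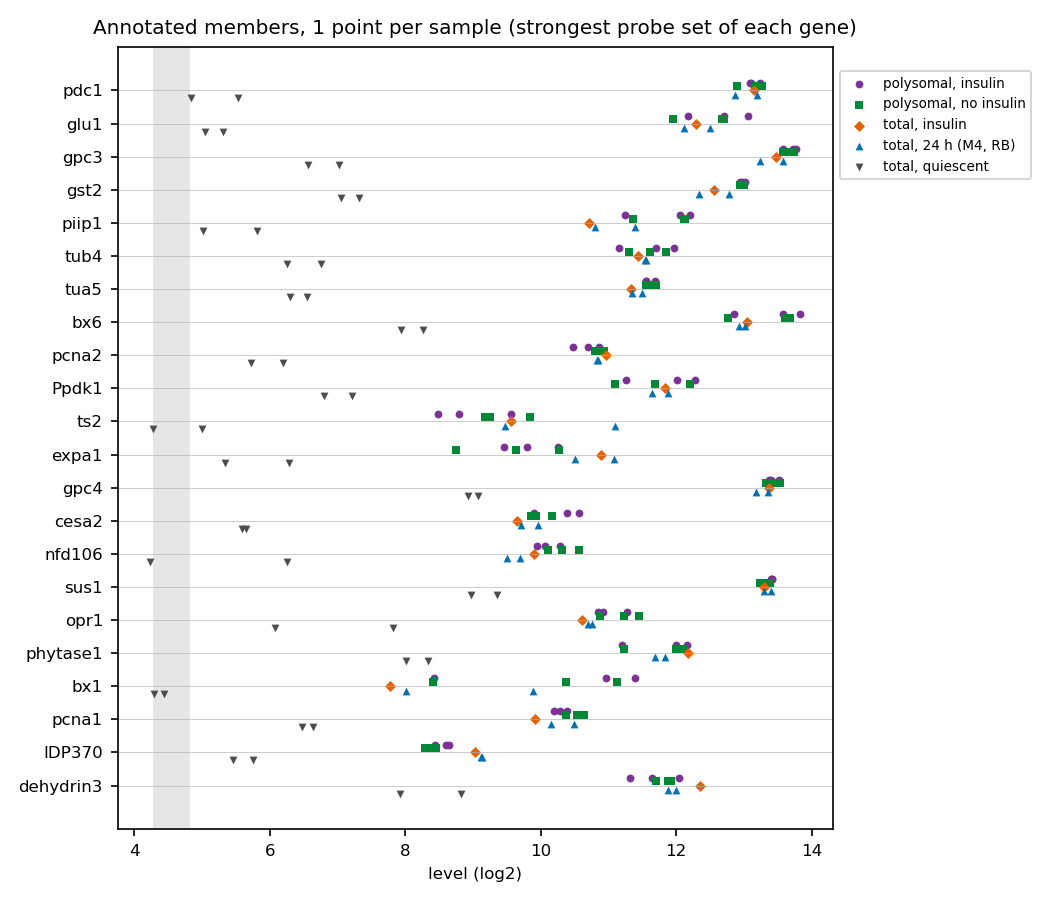
Log2 level (horizontal) of the strongest member probe set of each of the 22 annotated genes (rows, by M4 minus quiescent), 1 point per sample, with the range of background levels shaded. Quiescent points lie left of all germinated points for every gene, and bx1 has the widest spread among germinated samples.

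The gene families of the annotated members, and some families without an annotated member, were then counted over all annotated probe sets. Families with a member were picked for that member, so their counts are a description. Alcohol dehydrogenases, histones and ribosomal proteins hold no annotated member, but 155 members have no gene in the annotation. All counts are to be read against the shares of all probe sets called, 21.3% higher and 25.8% lower at 24 h. Of 16 tubulin probe sets, 15 were called higher at 24 h and none lower, while 2 are members. Of 17 expansin probe sets, 9 were called higher and none lower, and of 13 cellulose synthase probe sets 7 were called higher and 1 lower, each family with 1 member. Of 35 glutathione S-transferase probe sets, 19 were called higher and 3 lower, and gst2 alone is a member.

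Both annotated alcohol dehydrogenases, which act after pyruvate decarboxylase in fermentation, were called higher, but neither is a member. adh1 averaged 13.57 ± 0.02 at 24 h and 12.79 ± 0.04 in quiescent axes, and adh2 averaged 10.84 ± 1.96 at 24 h and 6.57 ± 1.18 in quiescent axes (SD, n = 2 each). For adh2, RB was 2.77 below M4. Histones gave 5 probe sets called higher and 1 lower of 8 annotated. None of these is a member, and the 4 that passed the first threshold lagged in RB. A member without a gene shares its cluster with the annotated probe set of the histone gene his2b5. That member lay near the RB threshold, with 4.64 for M4 minus quiescent and −0.49 for RB minus M4. Ribosomal proteins, the subject of the series' title, gave 2 called higher and 1 lower of 17 annotated, with a median difference of 0.01 and no member among them.

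**Figure D4:**
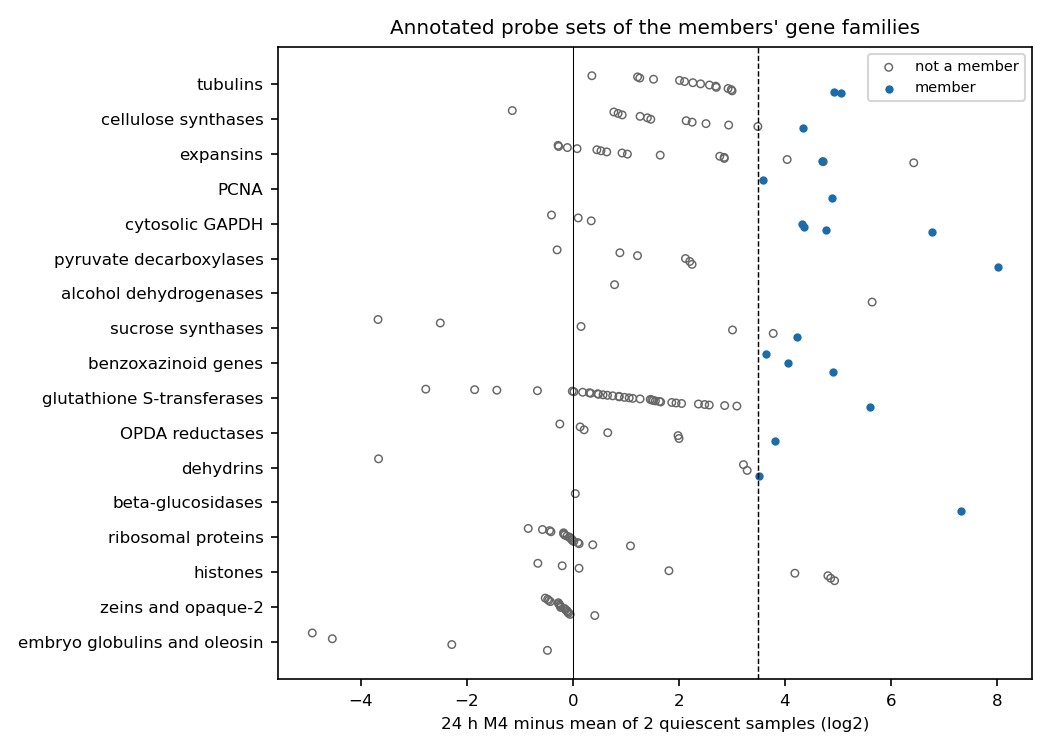
M4 minus the mean of the quiescent samples (horizontal, log2) for the annotated probe sets of each family (rows), members filled, with a dashed line at 3.5. Tubulins lie right of 0 throughout with 2 members past the line, and ribosomal proteins lie around 0.

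Whether insulin changed the members was tested in polysomal RNA. The samples compared did not enter the rule, but the fit takes its spread from all 5 groups, the rule's samples included. A fit of the polysomal samples alone is therefore given beside it. None of the 183 members was called at an adjusted p under 0.05 (limma), as was none of the 17555 probe sets (0% called). At an unadjusted p under 0.05, 0 members and 0.325% of all probe sets passed. The member difference, insulin minus no insulin, had a median of 0.01 and ran from −0.68 to 0.34, and over all probe sets the median was −0.01. In the fit of the polysomal samples alone, no member and no other probe set was called, and 1 member passed an unadjusted p under 0.05, against 1.01% of all probe sets (limma). Its 95% intervals excluded a 2-fold change either way for 156 members (85.2%), against 93.6% of all probe sets. A missed threshold does not show that insulin left a member unchanged.

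In that fit, pdc1 differed by 0.03 ± 0.13 (SE) between insulin and no insulin, with a 95% interval from −0.28 to 0.35. glu1 differed by 0.20 ± 0.29, with an interval from −0.49 to 0.88. bx1 differed by 0.29 ± 0.94, with an interval from −1.93 to 2.51, the widest of these 3. All 3 insulin samples were above all 3 others for 3 members and below for 3 members, against 1.52% and 2.46% of all probe sets. The adjusted p of every member was 1.00 in both fits (limma), and such p-values cover no more than the spread among the samples at hand, which may be technical.

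The representation of members among polysomal mRNA was tested with insulin, in 3 polysomal samples against 1 total RNA sample. That lone sample is assumed to vary like the other groups, among them M4 and RB, whose difference the rule limited. None of the 183 members was called, while 1 probe set was (0.0057%). The lowest adjusted p of a member was 0.338 (limma). Polysomal minus total, the members had a median of 0.08 and all probe sets −0.07, and the members ran from −2.05 to 2.48. Against a single total RNA sample, a missed threshold does not show that polysomal and total levels of a member were alike. With the compared groups alone in the fit, no member and no other probe set was called.

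At an unadjusted p under 0.05, 24 members passed, 17 with a higher and 7 with a lower polysomal value, which are 13.1% of the members against 9.58% of all probe sets. Over all probe sets 3.71% passed as higher and 5.87% as lower. All 3 polysomal samples were above the total RNA sample for 69 members and below it for 48, against 24.6% and 37.5% of all probe sets. With the compared groups alone in the fit, 30 members (16.4%) passed the unadjusted threshold, against 9.29% of all probe sets, 17 as higher and 13 as lower. These counts have no test of their own.

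bx1 had the highest polysomal minus total difference with insulin, 2.48, with uneven polysomal values of 11.39, 8.43 and 10.96 against 7.78 in total RNA. piip1 differed by 1.12 and 1.07 on its 2 member probe sets, and cesa2 by 0.64. The gpc3 probe sets that share a cluster with gpc4 differed by 0.76 and 0.72, but the strongest gpc3 probe set by 0.22. On the lower side, expa1 differed by −1.05, dehydrin3 by −0.68 and ts2 by −0.62. cesa2 had 10.56, 9.90 and 10.39 in polysomal RNA with insulin, against 9.65 in total RNA with insulin. expa1 had 9.46, 10.26 and 9.80 in polysomal RNA with insulin, against 10.89 in total RNA with insulin. None of these passed the adjusted threshold, and their values are a description.

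Among members without a gene, the one with the lowest polysomal minus total difference had 7.45, 7.88 and 7.01 in polysomal RNA with insulin and 7.70, 6.73 and 7.17 without it, against 9.50 in total RNA with insulin, 8.99 in M4 and 8.80 in RB. Every polysomal sample was below every total RNA sample of germinated axes there, with a difference of −2.05 with insulin. Differences of 2.10 and 1.85 with insulin, in other members without a gene, exceeded that of the member ranked 29 by M4 minus quiescent. The rank 29 member had 12.19, 11.64 and 11.55 with insulin and 11.92, 12.16 and 11.79 without it in polysomal RNA. In total RNA it had 10.11 with insulin, 10.36 in M4 and 9.89 in RB. There every polysomal sample was above, with a difference of 1.69 with insulin.

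**Figure D5:**
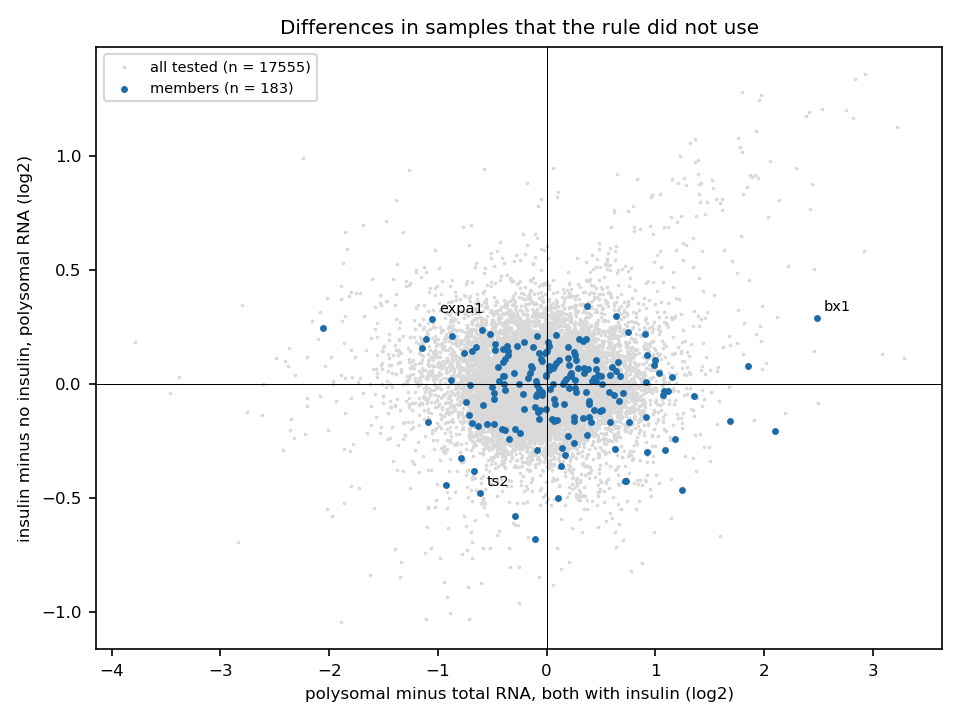
Insulin minus no insulin in polysomal RNA (vertical, log2) against polysomal minus total RNA with insulin (horizontal, log2), members in blue over all tested probe sets in grey. The members stay between −0.68 and 0.34 on the vertical axis and spread from −2.05 to 2.48 on the horizontal axis, with bx1 at the right.

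Without insulin, the polysomal samples can only be set against M4 and RB, which chose the members. Polysomal minus 24 h total RNA, the member median was 0.10, against 0.56 for the 354 probe sets that lagged in RB and 0.00 for all. In the fit 5 members were called, against 1.08% of all probe sets, and nothing is read from this. Taking all germinated samples, the 6 polysomal samples were above the 3 total RNA samples for 36 members (19.7%) and below them for 23 (12.6%), against 7.68% and 9.88% of all probe sets. The lagging probe sets had 13.8% and 0.282%. As M4 and RB entered the rule, nothing is read from these shares. gst2, tua5, nfd106 and opr1 were among the 36, and expa1 and IDP370 among the 23.

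The members also varied among the polysomal samples themselves. The 6 samples spanned at least 1 on the log2 scale for 44 members (24.0%), against 11.7% of all probe sets, and the median span was 0.68 for members and 0.50 for all. In 19 members (10.4%), against 3.13% of all probe sets, the span was this wide and insulin sample 2 and no-insulin sample 1 were the lowest, as for bx1, bx6, Ppdk1, glu1 and piip1. In 8 (4.37%), against 2.59% of all, they were the highest, as for expa1 and ts2. The remaining 17 (9.29%), against 5.94% of all, followed neither order. The lagging probe sets gave 9.32%, 3.95% and 13.8% in the same order. The EF1a control had its largest 3′ minus 5′ differences in insulin sample 1 and no-insulin sample 2. The part of that, and of the low hybridisation controls of insulin sample 2, in these spans was not tested. Nor was that of the spike-in levels, which were highest in insulin sample 2 and no-insulin sample 1. With both left out, no member was called in either comparison, and the median difference was 0.02 for insulin and 0.14 for polysomal minus total RNA.

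The members can also be set beside the 354 probe sets that lagged in RB, which differ from them in RB by the rule. Total RNA with insulin minus the 24 h mean had a median of 0.05 over the members and 0.58 over the lagging probe sets, with RB entering that mean. Against M4 alone, the medians were 0.00 and −0.08. The insulin difference in polysomal RNA had a median of 0.01 over the members and 0.05 over the lagging probe sets, and polysomal minus total RNA with insulin had 0.08 and 0.06, with 0 called in each set.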

How the data were processed

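Per the labels' protocols, total RNA was extracted from 1 g and polysomal RNA from 2 g of axes, and 4 µg of RNA was labelled with biotin. The authors deposited 1 table of log2 values for 17734 probe sets on 14 arrays; the scale is read from the range of 2.60 to 14.38, and no source used here states the normalization. limma is the tool in the submitters' processing notes, without a version. A value is relative to all RNA on its array.

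Technical arrays were averaged into 11 samples. The 5 groups were fitted together with limma 3.58.1 in R 4.3.3 (lmFit, eBayes; 6 residual and 3.21 prior degrees of freedom) over 17555 probe sets, leaving out 179 controls. A call is a Benjamini-Hochberg adjusted p under 0.05 over all of them. For members, calls in contrasts sharing samples with the rule are counted but nothing is read from them; for other probe sets of the same genes and families they describe. The number of arrays limits the precision.

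Gene names came from the platform annotation, matched to RefSeq by gene identifier (1377 of 1452 found). Every member with 1 annotated gene is named, other members only by their rank or extreme value. The members and gene lists were chosen with earlier results of these data known. Alternatives changed the thresholds, normalization, centring, technical arrays, filter, prior and samples.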

Additional observations from a re-analysis of the deposited data

Results flagged for a closer look

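The rule left out 27 control probe sets named for maize genes. Of these, 3 passed both of its thresholds, a signal in data outside the comparisons above. The actin control at the 3′ end had 12.11 in M4 and 12.15 in RB, against 8.55 and 8.62 in quiescent axes, a log2 difference of 3.53 for M4. The actin control in the middle of the transcript differed by 3.93, with 11.08 in M4 and 11.66 in RB, against 7.19 and 7.11 in quiescent axes. The GAPDH control in the middle of the transcript differed by 5.18, with 13.89 in M4 and 13.76 in RB, against 8.73 and 8.68 in quiescent axes. All 3 stayed between 11.35 and 14.07 in the polysomal samples and in total RNA with insulin.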

How the results depend on the processing

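The number of members depends on the thresholds. It was 281 with an M4 minus quiescent minimum of 3.0, 112 with 4.0 and 314 with RB allowed to lie up to 1.0 below M4, against 183. Leaving out a quiescent sample gave 179 to 183 members, and the other settings gave 129 (RB at most 0.25 below M4), 139 (arrays centred on their median), 170 (quantile normalization) and 180 (first technical array alone). For polysomal against total RNA with insulin, the count of all probe sets called was 1 and became 2 with a trend and robust prior, 0 with only the compared groups, 0 to 2 with 1 polysomal sample left out (0 without insulin sample 2, 2 without insulin sample 3), and 2 with both samples of the highest spike-in level left out, a setting chosen after seeing the data. No member was called in either comparison under any of the 15 and 11 alternatives run. The median member difference with a sample left out lay between −0.08 and 0.06 for insulin and between 0.04 and 0.14 for polysomal minus total RNA. For the 28 annotated probe sets no call changed, while the sign of the uncalled difference changed in some alternative for 19 of them for insulin and 4 for polysomal minus total RNA. The polysomal samples share only replicate numbers. Their deviations from the group means correlated at −0.63, −0.44 and 0.60 between the same numbers, so the numbers were not taken as pairs. Insulin samples 1, 2 and 3 correlated best with no-insulin samples 2, 1 and 3 (0.70, 0.77 and 0.60). The labels do not give that pairing and no fit uses it, so the insulin intervals include whatever spread such samples share. With the replicate number as a block, in a fit of the polysomal samples alone, 0 probe sets and 0 members were called for insulin. The median member difference was 0.01. In that fit 198 probe sets passed an unadjusted p under 0.05, against 177 in the same samples without the block (limma). The single total RNA sample with insulin and the 2 samples at each time limit what can be told.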
